A study of Homo sapiens with 7 samples.

Results

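The MYC, MAX and MXD network is a set of 10 genes that encode the MYC proteins and the partners and opponents with which they compete. The members were taken by name: the activators MYC, MYCN and MYCL1, the repressors MXD1, MXI1, MXD3, MXD4 and MNT, and the shared partners MAX and MLX. Of these, 9 were measured among the 20423 genes of the expression file, and MYCN was not analysed here. The values came from 1 polyA RNA-seq library of HCT116 cells, an established human colon adenocarcinoma line. The series also maps piggyBac transposon insertions in the same line, made by the wild-type transposase (3 libraries) or by its fusion with SP1, a zinc finger transcription factor (2 libraries), and holds 1 list of SP1 ChIP-seq peaks. The labels give a single growth text for every sample, with selection of transposon-bearing cells by G418, and do not say whether the cells of the RNA library carried a transposon.

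MYC proteins are basic helix-loop-helix leucine zipper factors that bind DNA only as dimers with MAX. The dimer recognises the E-box CACGTG and recruits histone acetyltransferases and elongation factors. MXD proteins and MNT bind the same sites with MAX and bring in the SIN3 and NCOR corepressors with their histone deacetylases. MLX is a second hub, which pairs with MXD1, MXD4 and MNT and with the nutrient-sensing factors MLXIP (MondoA) and MLXIPL (ChREBP). In the gut, MYC is known as a target of WNT signalling and as a driver of crypt cell growth.

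Promoters of the members are shown first because the E-box is the site that the network itself binds, and the GC box is the site bound by SP1. RefSeq promoters on GRCh38.p14, each running from 250 bases before to 50 after a transcription start, were found for 9 members, with 12 starts in all; MYC had no entry. The E-box CACGTG lay in 3 members, MXD4, MNT and MLX. Their 250 bases before the start follow, 5′ to 3′ on the gene's strand. Capitals mark CACGTG and the GC box GGGCGG or its reverse complement CCGCCC. The stretches lie at chr4:2262110-2262359 (minus strand) for MXD4, chr17:2401061-2401310 (minus strand) for MNT and chr17:42566850-42567099 (plus strand) for MLX.
MXD4: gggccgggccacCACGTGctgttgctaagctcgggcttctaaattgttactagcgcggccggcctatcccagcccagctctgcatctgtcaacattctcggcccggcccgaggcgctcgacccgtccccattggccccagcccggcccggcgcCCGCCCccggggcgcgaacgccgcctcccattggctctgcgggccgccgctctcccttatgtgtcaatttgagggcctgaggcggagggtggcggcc
MNT: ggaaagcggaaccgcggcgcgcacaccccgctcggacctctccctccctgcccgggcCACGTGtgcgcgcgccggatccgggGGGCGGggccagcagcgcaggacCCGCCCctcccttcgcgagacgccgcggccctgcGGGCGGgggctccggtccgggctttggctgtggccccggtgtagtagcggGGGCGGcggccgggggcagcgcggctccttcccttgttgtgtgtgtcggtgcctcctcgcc
MLX: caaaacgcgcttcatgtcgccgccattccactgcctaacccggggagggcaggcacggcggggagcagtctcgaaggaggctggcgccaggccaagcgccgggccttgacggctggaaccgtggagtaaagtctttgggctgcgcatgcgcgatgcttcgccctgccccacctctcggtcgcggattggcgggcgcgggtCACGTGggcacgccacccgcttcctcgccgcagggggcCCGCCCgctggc

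The first letter of the E-box lay 238 bases before the start in MXD4, 193 in MNT and 50 in MLX. These are the genes of a hub and of 2 repressors that can pair with it. No CACGTG lay in the windows of MYCN, MYCL1, MAX, MXD1, MXD3 or MXI1, nor in those of MGA, MLXIP and MLXIPL. Over all 35116 promoters of the table, 7.26% held CACGTG on either strand (the motif is its own reverse complement), against 3 of the 12 member starts. Of the 9 other E-box factors of the same protein class, 8 had a promoter in the table, and 0 of them held CACGTG. Other lists, also counted per gene with a promoter, did hold it. It lay in 4 of 8 targets of MondoA or ChREBP and in 1 of 8 genes used as general references. In the MGA and PCGF6 complex 1 of 9 genes held it, and of the SIN3 and NCOR corepressor genes 1 of 18. The looser form CANNTG, which includes CACGTG, lay at 8 of the 12 member starts and in 68.7% of all promoters, shares that are close.

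The GC box GGGCGG, searched on both strands, lay in all 9 members that had a promoter. It was found at 11 of the 12 starts, the exception being 1 of the 2 starts of MAX, against 45.0% of all promoters. The GC box was also common in related genes. Counted per gene, 7 of the 8 other E-box factors with a promoter held it, as did MGA, MLXIP and MLXIPL. Of 8 genes used as general references that had a promoter, 6 held it. MNT held 4 GC boxes within the printed stretch and MXD4 and MLX 1 each. Most member promoters were also rich in G and C, with a range of 55.0% to 76.0% against a median of 58.7% over all promoters. Of the member starts, 1 of MXI1 (55.0%) lay below that median, that of MYCN (58.7%) equalled it and the others lay above. The part of base composition in the count was not tested. These matches describe letters only. Binding of SP1 at them was not examined here, since the peaks and insertions are placed on hg18 and the promoters on another build. No library of the series measured binding of MYC.

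**Figure D1:**
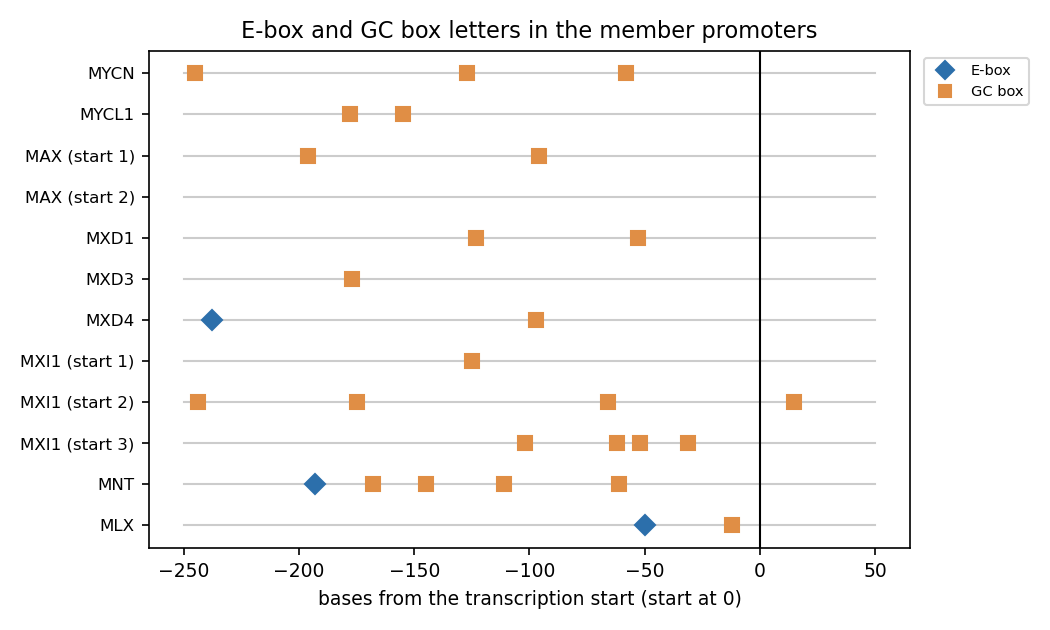
Positions of the E-box CACGTG (diamonds) and the GC box GGGCGG (squares) in the 12 promoter windows of 9 members, in bases from the transcription start at 0, with each symbol at the motif's first base on the gene's strand. E-boxes appear in MXD4, MNT and MLX, and GC boxes in every window but 1 of MAX.

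MYC was by far the most abundant of the measured members. It stood at 176 RPKM (reads per kilobase of transcript, scaled to the size of the library), rank 266 of 20423 genes, and 92.2 times the median of all genes, which was 1.91 RPKM. MYCL1, which encodes L-MYC, stood at 4.74 RPKM and rank 7543, so that MYC RNA was 37.1 times that of MYCL1 and made up 97.4% of the activator RNA measured. In the ordering of all genes MYC lay between XRCC6, a DNA end-binding protein, at 176 RPKM and NDUFB7, a respiratory chain subunit, at 175 RPKM. The library has no replicate, so no error or test can be given for this or any later level, and neighbours in such an order cannot be separated. A difference in RNA per cell cannot be told apart from one in the share of cells that express a gene.

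The 5 repressors all lay below MYC and, apart from MXD1, close to each other. MXI1, also known as MXD2, stood at 14.5 RPKM (rank 3792) and MXD3 at 14.2 RPKM (rank 3867). MXD4 stood at 11.9 RPKM (rank 4425) and MNT, the broadly expressed member of this side, at 11.4 RPKM (rank 4570). These 4 levels spanned 1.27-fold, and each lay between 5.96 and 7.58 times the median of all genes. MXD1, which is known to rise as cells differentiate, stood apart at 1.43 RPKM, rank 10916 and below the median of all genes. The highest repressor RNA was 10.1 times the lowest.

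**Figure D2:**
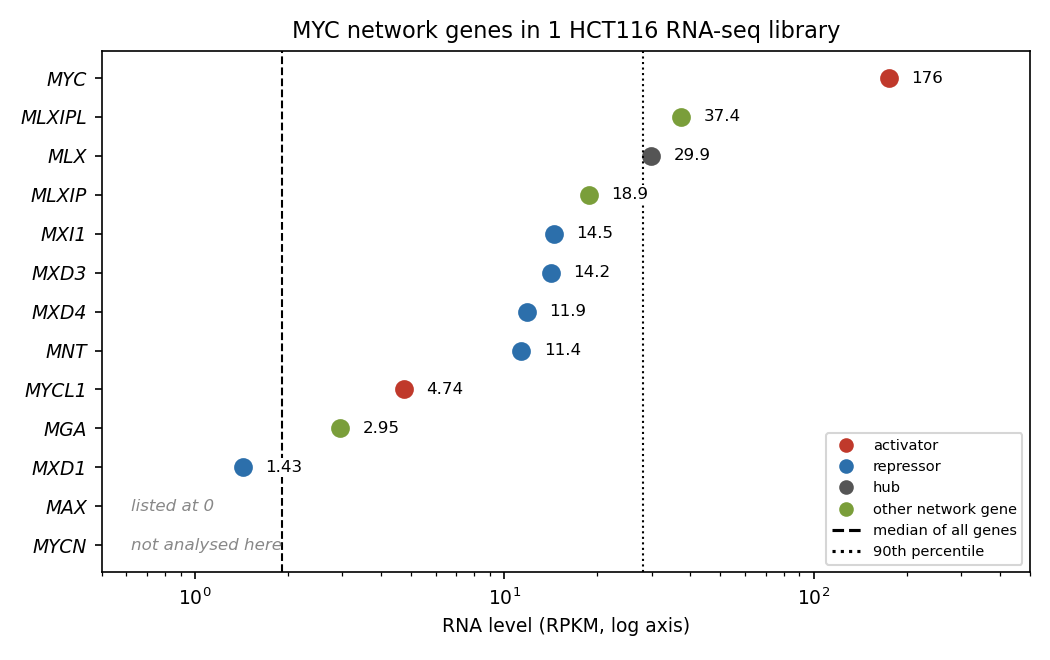
RNA level in RPKM on a log axis of the 10 members and of MGA, MLXIP and MLXIPL, coloured by role, with the median (dashed) and the 90th percentile (dotted, 28.1 RPKM) of all genes. MYC lies at 176 RPKM, 4 repressors sit together between 11.4 and 14.5, MXD1 lies under the median, MAX is listed at 0 and MYCN was not analysed here.

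The hubs could be compared only in part, because MAX was listed at 0. In all 3398 genes (16.6% of the file) stood at that value, among them YWHAZ, a signalling adaptor that most cells express, the chromatin remodelling subunit SMARCB1 and EIF4E, which binds the cap of messenger RNA. A 0 in this file is therefore not read as absence of RNA, a ratio of MAX to its partners has no meaning here, and no nearest genes in level can be named for it. MLX stood at 29.9 RPKM, rank 1919, between APOBEC3C at 29.9 and CENPB at 29.9 RPKM. Its RNA was 1.21 times the summed RNA of MXD1, MXD4 and MNT, its repressor partners, at 24.7 RPKM. MNT lay between NFX1 and ATP6V0E2, both at 11.4 RPKM. Nearness in level within 1 library is a position in a list and no likeness of pattern.

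**Figure D3:**
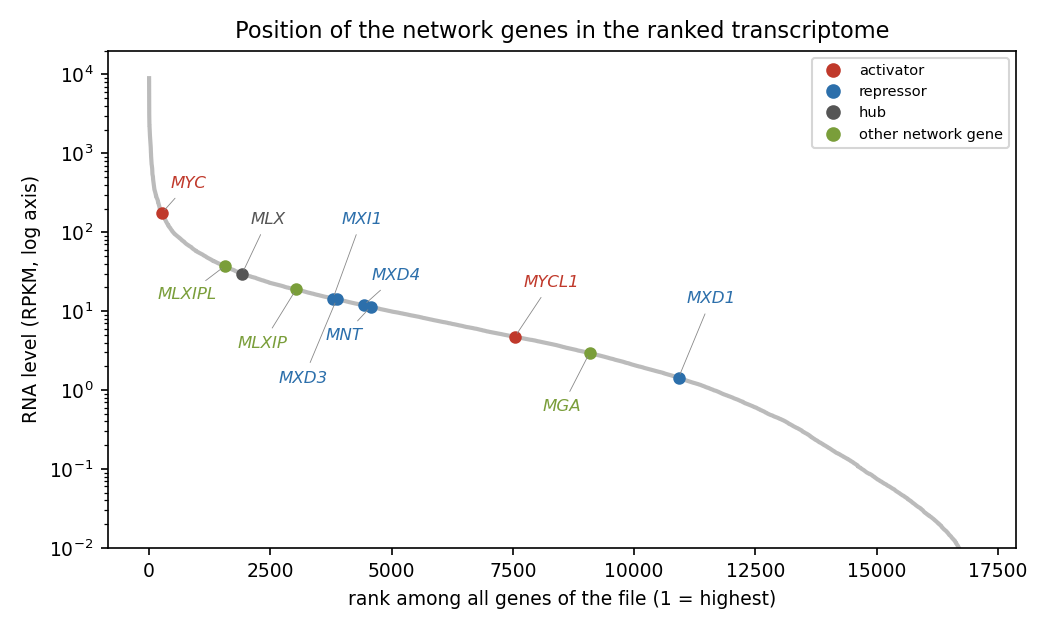
All genes above 0 ranked by RPKM (grey line, log axis, shown from 0.01 RPKM), with the measured network genes marked by role. MYC lies at rank 266 on the steep part of the curve, MLX at 1919, 4 repressors between 3792 and 4570, and MXD1 at 10916.

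Summed RNA of the activators was 3.39 times that of the repressors, at 181 RPKM for MYC and MYCL1 against 53.3 RPKM for the 5 repressors, with MYCN in neither sum. MYC alone exceeded the highest repressor, MXI1, 12.2 times, and the sum of all 5 by 3.30 times. The balance thus rested on 1 gene: without MYC the ratio was 0.0889. On the repressor side the RNA was spread fairly evenly over all but MXD1. MXI1 gave 27.1%, MXD3 26.6%, MXD4 22.3% and MNT 21.3%, and MXD1 only 2.68%. These sums count RNA per length in 1 library; protein amounts and dimers were not measured.

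**Figure D4:**
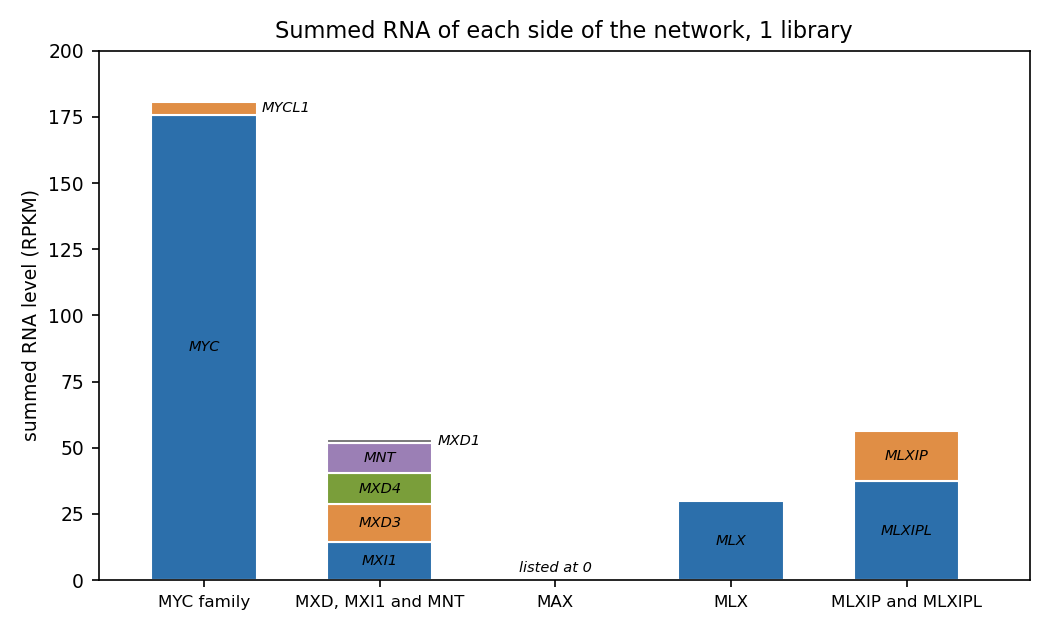
Summed RPKM (bars from 0) of the MYC family, of the MXD, MXI1 and MNT repressors, of MAX, of MLX and of the MLX partners MLXIP and MLXIPL, split by gene. The MYC family bar reaches 181 RPKM and is nearly all MYC, the repressor bar reaches 53.3, and MAX is listed at 0.

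On the other branch of the network, MLXIPL, known as the carbohydrate response factor ChREBP, stood at 37.4 RPKM (rank 1563), 1.98 times MLXIP at 18.9 RPKM (rank 3031). Each exceeded all 5 repressors. MGA, the giant MAX partner that joins the repressive complex of PCGF6, was lower at 2.95 RPKM (rank 9081). Of 9 genes known as targets of MondoA or ChREBP, 5 (55.6%) reached 1 RPKM, near the 57.0% of all genes. FASN, the fatty acid synthase, stood at 76.5 RPKM, the acetyl-CoA carboxylase ACACA at 16.1, the glycolytic regulator PFKFB3 at 12.6 and the hexokinase HK2 at 5.78 RPKM. TXNIP, an inhibitor of glucose uptake and the best known MondoA target, stood at only 0.0147 RPKM (rank 16498), and G6PC, PKLR and TKFC were listed at 0. As for MAX, these values of 0 are not read as absence of RNA.

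Nearly all measured members were above 1 RPKM: 8 of 9, MAX being the exception, where 57.0% of all genes reached that level. At 5 RPKM or more were 6 of 9, against 36.0% of all genes. Of the 9 other E-box factors of this protein class 7 reached 1 RPKM, with a median of 10.9 RPKM. The sterol regulators SREBF1 and SREBF2 led with 71.9 and 52.7 RPKM and USF2 followed at 49.9 RPKM. MITF, the melanocyte factor, and its relative TFEC were near 0 at 0.219 and 0.0130 RPKM. MYC was thus 2.45 times the highest of these factors.

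Cofactors of both sides ranged widely in level. Of 20 SIN3 and NCOR corepressor genes, through which MXD proteins and MNT act, 19 reached 1 RPKM (57.0% of all genes). Their median was 11.6 RPKM, against 1.91 over all genes. The deacetylase HDAC1 stood at 92.6, SAP18 at 61.5 and GPS2 at 60.9 RPKM, and at the low end ING2 at 2.15 and ARID4A at 0.671 RPKM. The scaffolds SIN3A and SIN3B, named after their values were seen, stood at 11.4 and 17.8 RPKM, within the range from MNT to MLX. Of 19 MYC cofactors 18 reached 1 RPKM (57.0% of all genes), with a median of 15.7 RPKM. The ATPases RUVBL2 and RUVBL1, shared by several chromatin complexes, led with 180 and 87.8 RPKM, and the elongation kinase CDK9 had 40.6 RPKM. The lowest above 0 were BPTF and CREBBP, at 9.37 and 9.33 RPKM, and SMARCB1 was listed at 0.

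All 23 genes of MYC protein turnover reached 1 RPKM (57.0% of all genes), with a median of 10.5 RPKM. The mitotic kinase PLK1 stood at 94.2, the deubiquitinase USP22 at 60.0 and the ubiquitin ligase STUB1 at 42.2 RPKM, and the lowest were FBXO32 at 1.61 and USP37 at 1.51 RPKM. FBXW7, the ligase subunit that recognises phosphorylated MYC and also named after its value was seen, was among the lower at 2.96 RPKM. Of the 9 genes of the MGA and PCGF6 complex 8 reached 1 RPKM (57.0% of all genes). Their median was 6.33 RPKM. TFDP1 (55.6 RPKM), RING1 (53.5) and CBX3 (14.9) were the highest, and E2F6 (3.10) and YAF2 (0.862) the lowest.

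Genes known to be induced by MYC in growth stood high. Of 49 such genes 46 reached 1 RPKM (57.0% of all genes) and the median was 31.7 RPKM, against 1.91 over all genes. PTMA, a nuclear protein of dividing cells, stood at 455 RPKM, IMPDH2 of guanine nucleotide synthesis at 339 and the nucleolar methyltransferase FBL at 312 RPKM. The phosphatase CDC25A was low at 2.61 RPKM and the cyclin CCND2 close to 0 at 0.0164 RPKM, and AIMP2 and EIF4E were listed at 0. A list of 10 genes used as general references had a higher median, 105 RPKM, with 9 of 10 at 1 RPKM or more. Genes known to be repressed by MYC had a lower median, 7.27 RPKM, with 16 of 19 at 1 RPKM or more. Some of these were nevertheless abundant: the ferritin chain FTH1 stood at 440, the cell cycle inhibitor CDKN1A at 155 and the cyclin CCND1 at 109 RPKM. THBS1 and PDGFRB were low, at 0.956 and 0.135 RPKM, and GAS1 was listed at 0. PTMA and FTH1 have many processed gene copies, and how the authors counted reads shared with them is not known. A level in 1 condition does not show induction or repression.

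**Figure D5:**
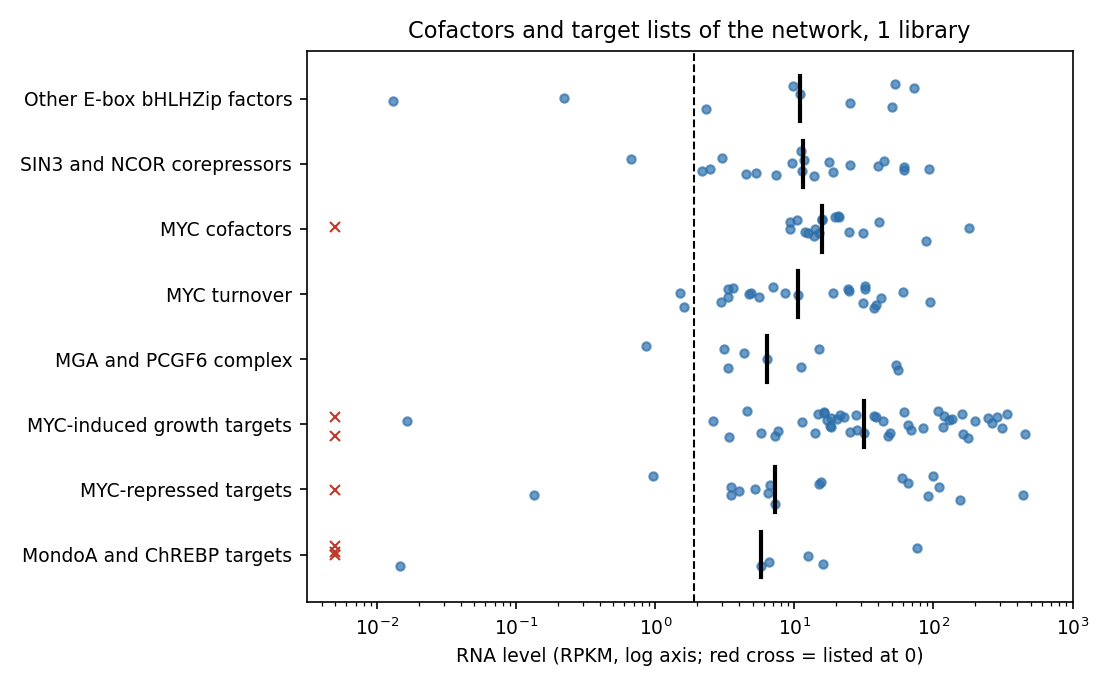
RPKM (log axis) of each gene in 8 lists of network cofactors, relatives and targets, with list medians as black bars, genes listed at 0 as red crosses and the median of all genes (1.91 RPKM) as a dashed line. The growth targets have the highest median, 31.7 RPKM, and all 8 medians lie above that of all genes.

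The labelled cell type was checked with fixed markers. The epithelial keratins KRT19, KRT8 and KRT18 stood at 543, 378 and 268 RPKM, but 6 of 11 colon epithelial markers (54.5%) reached 1 RPKM, a share near the 57.0% of all genes. The brush border gene VIL1 and the intestinal transcription factor CDX1 were at 0.0313 and 0.0242 RPKM, and LGALS4 was listed at 0. EPCAM, CDH1 and the intestinal factor CDX2, named after their values were seen, stood at 79.5, 17.0 and 9.19 RPKM. The other 5 markers lay below 1 RPKM: VIL1, CDX1, LGALS4, the keratin KRT20 (0.238 RPKM) and CDH17 (0.0464 RPKM). The epithelial part of the label thus rests on KRT19, KRT8, KRT18, EPCAM and CDH1. Of the intestinal markers CDX2 alone was above 1 RPKM, and the others were near or at 0. Among 7 leukocyte and 5 endothelial markers 0 reached 1 RPKM. The highest were CD14 at 0.218 and KDR at 0.163 RPKM. Listed at 0 were 3 leukocyte markers, PTPRC among them, and 1 endothelial marker. Of the 5 fibroblast markers in the file COL1A1 alone reached 1 RPKM, at 14.5 RPKM, with COL1A2 at 0.0277 RPKM and 2 listed at 0. As for MAX, a 0 for any marker of this check is not read as absence of RNA.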

How the data were processed

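The authors deposited 1 RPKM value for each RefSeq gene. Per the deposited readme they used TopHat on hg18 and then Cufflinks (1.1.0 per the submitters' processing notes). No source used here gives the library's depth or transcript models, and no interval was computed. No symbol had several lines. Ranks, sums, medians and ratios of RPKM were computed with Python 3.11.15 and pandas 2.3.3, and no test was possible with 1 library. Motifs were searched as exact letters in 300-base RefSeq promoters; the search was tested on simulated sequences. Only 70.9% of the file's genes had a promoter there, matched by current or older symbol, so a comparison of motifs with RPKM over all genes was void. Protein sequences were not used here. Insertions and peaks, on hg18, were not tied to genes and not used. All members, MGA, MLXIP and MLXIPL are named, with the 3 highest, the 2 lowest above 0 and up to 3 genes listed at 0 of each list, and the nearest genes in level of MYC, MLX and MNT (planned for MAX too, but undefined at 0). Of the leukocyte, endothelial, fibroblast and reference lists only some of these are printed. Members and lists were chosen with earlier results of these data known.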

Additional observations from a re-analysis of the deposited data

How the results depend on the processing

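The activator to repressor ratio of 3.39 stayed above 1 under the alternatives below, except the removal of MYC. Leaving out a repressor or adding activators can only raise the ratio, so those choices could not bring it below 1. It was 3.13 with 1 RPKM added to each member, 3.30 with MYC as the only activator, 4.31 without MNT, 4.36 without MXD4, 4.65 without MXI1 and 3.21 with MGA as a repressor. The minimum of 1 RPKM removed none of the 7 genes summed and so tests nothing. Averaged per gene, the difference was 1.70 on the log2(RPKM + 1) scale and 1.78 on the log2(RPKM + 0.1) scale. Choices added after seeing the data gave 4.44 with MLXIP and MLXIPL as activators and 0.0889 without MYC. The planned ratio of MAX to its partners cannot be interpreted, since MAX is listed at 0: it is 0 as listed, 0.00415 with 1 RPKM added to each gene, which reflects the added value only, and 0.128 with MLX added to MAX, which is MLX alone. At 5 RPKM the turnover list fell from 23 to 15 genes and the MGA and PCGF6 list from 8 to 5. Over all genes the count fell from 11638 (57.0%) to 7344 (36.0%), so such a fall is not particular to these lists. The other 40 of 42 list alternatives stayed within 1.5 times, but not all of these could move. Leaving out genes listed at 0 cannot change a count at 1 RPKM, so that choice tests nothing. Ranking only genes above 0 or above 1 RPKM lowered all 16 percentiles of the members, MYC's from 98.7 to 98.4 and 97.7 and that of MXD1 from 46.6 to 35.9 and 6.20. The direction was fixed in advance, since only genes below each of these members are removed. The E-box and GC box counts were the same before the start alone. No paired analysis was possible because the values come from 1 library. The protein comparison was not run. With depth unknown, low levels such as those of TXNIP and CCND2 have no stated error.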

Other observations

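PVT1, a noncoding gene that neighbours MYC, stood at 42.1 RPKM and rank 1372 of 20423, so that MYC RNA was 4.18 times as high. MYCBP and MYCBP2, named for their binding to MYC protein, stood at 6.53 and 3.42 RPKM. These genes were chosen after their values were seen, and no test was possible with 1 library.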
